A study of Mus musculus with 17 samples.

Results

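The 6 mucin genes Muc1, Muc4, Muc16, Muc20, Muc5ac and Muc5b were read by symbol as the mucins of ocular and glandular epithelium, from 57638 genes with a row in either of 2 RNA-seq count tables made from mouse lacrimal gland. The samples were wildtype lacrimal gland, organoids grown from it, and clonal organoid lines that are wildtype or labelled Pax6-KO (Pax6 is a transcription factor of eye and lacrimal gland development). Uncloned wildtype organoids in differentiation medium (DM organoids, n = 3) had spent 2 days in expansion medium (EM) and 5 days in DM, against 7 days in EM for EM organoids (n = 3) and no culture for the gland (n = 3), and the numbers 6, 7 and 8 mark the lines and glands. The clones were 2 labelled KO in DM, the same 2 in EM, 2 WT in DM and the same 2 in EM, numbered 1 and 2 within each genotype. The labels' protocols give the clones in DM the same 2 days of EM and 5 days of DM, whereas the series' design text gives 7 days in each medium, so their time in DM is uncertain. What the media held, how the knockout was made, which line the clones came from, and the strain, age and sex of the mice are not given by the labels. The labels do not say whether lines 6, 7 and 8 came from separate animals, so p-values measure the spread between these libraries.

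Mucins are large glycoproteins whose repeated serine- and threonine-rich stretches carry dense O-linked glycans. In mammals, Muc1, Muc4, Muc16 and Muc20 encode membrane mucins, which span the apical membrane and build the glycocalyx. In human eyes, MUC1, MUC4 and MUC16 cover the cornea and conjunctiva, where they hold the tear film on the surface. Muc5ac and Muc5b encode secreted gel-forming mucins: Muc5ac is the mucin of conjunctival goblet cells, and Muc5b that of airway and several mucous glands. The lacrimal gland itself is known mainly for the watery and protein part of tears.

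On GRCm38 with the GENCODE M21 annotation, Muc1 (ENSMUSG00000042784) lies on chromosome 3 at 89229057 to 89233381 on the plus strand. Muc4 (ENSMUSG00000079620; chromosome 16, 32735886 to 32782391, plus) and Muc20 (ENSMUSG00000035638; chromosome 16, 32777419 to 32797435, minus) overlap by 4973 bases on opposite strands, of which 627 bases are exonic in both. Those bases are 5.33% of the exons of Muc4 and 15.6% of the exons of Muc20. The library kit marks strand, but no source used here gives the strand setting of the counting, so a share of the reads of either gene may belong to the other. Muc16 (ENSMUSG00000109564) lies on chromosome 9 at 18495455 to 18674530 on the minus strand, in 86 exon blocks. Muc5ac (ENSMUSG00000037974; 141788972 to 141819231) and Muc5b (ENSMUSG00000066108; 141839070 to 141873084) stand head to tail on the plus strand of chromosome 7, 19.8 kb apart, in the cluster of gel-forming mucins.

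The promoters of the 4 membrane mucins are shown because these were the members with a promoter window available. RefSeq (GRCm38.p6) held windows from 250 bases before to 50 after the gene start for 4 of the 6 genes, Muc1 at chr3:89228806-89229105 on the plus strand, Muc4 at chr16:32735636-32735935 on the plus strand, Muc16 at chr9:18674554-18674853 on the minus strand and Muc20 at chr16:32797386-32797685 on the minus strand. The Muc16 window lies wholly upstream of the GENCODE M21 start of Muc16 (18674530, minus strand), so it was cut around a different start. Each is printed 5′ to 3′ on its gene's strand, and capitals mark matches to the motifs searched.
Muc1: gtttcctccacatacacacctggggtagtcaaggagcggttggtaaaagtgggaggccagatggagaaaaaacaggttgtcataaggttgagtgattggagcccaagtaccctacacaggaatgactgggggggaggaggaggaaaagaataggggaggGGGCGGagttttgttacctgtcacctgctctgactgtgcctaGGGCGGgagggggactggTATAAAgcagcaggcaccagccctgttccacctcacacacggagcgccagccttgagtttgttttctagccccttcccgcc
Muc4: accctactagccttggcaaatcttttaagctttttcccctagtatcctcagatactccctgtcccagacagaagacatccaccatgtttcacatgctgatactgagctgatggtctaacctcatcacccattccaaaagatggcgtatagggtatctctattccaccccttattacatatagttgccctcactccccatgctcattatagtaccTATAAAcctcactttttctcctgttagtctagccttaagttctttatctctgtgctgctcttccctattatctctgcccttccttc
Muc16: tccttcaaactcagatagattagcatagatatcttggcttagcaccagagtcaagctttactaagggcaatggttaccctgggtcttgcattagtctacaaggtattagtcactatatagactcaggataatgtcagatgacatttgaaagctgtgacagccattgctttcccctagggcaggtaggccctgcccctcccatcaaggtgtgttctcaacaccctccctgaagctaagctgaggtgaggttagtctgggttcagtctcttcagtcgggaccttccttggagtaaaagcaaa
Muc20: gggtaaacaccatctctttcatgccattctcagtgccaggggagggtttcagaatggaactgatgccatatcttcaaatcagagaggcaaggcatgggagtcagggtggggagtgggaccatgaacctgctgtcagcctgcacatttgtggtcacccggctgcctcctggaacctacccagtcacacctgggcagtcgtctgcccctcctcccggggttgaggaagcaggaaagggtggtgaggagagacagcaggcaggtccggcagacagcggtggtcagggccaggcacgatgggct
The searches ran on both strands. The TATA box was read as TATAAA, which 13.6% of 32851 mouse promoter windows held. The GC box was read as GGGCGG, present in 35.7% of windows. The AP-1 element was read as TGANTCA, present in 7.81%, and the STAT element as TTCNNNGAA, present in 8.3%. The Muc1 window had a GC box at positions -91 and -49 and a TATA box at -31 from the start, and the Muc4 window had a TATA box at -36. The Muc16 and Muc20 windows had no match to the 4 motifs. GC content was 55.7% for Muc1, 43.7% for Muc4, 46.7% for Muc16 and 59.3% for Muc20, against a median of 52.7% over all windows. These matches describe letters in a window and are not binding data.

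Values below are read counts normalised to the scaled library size (CPM), and a gene was called where edgeR's quasi-likelihood test gave a Benjamini-Hochberg adjusted p under 0.05 over all genes tested. The 9 libraries of gland and uncloned organoids had 12801473 to 19207469 counts, and the 8 clone libraries had 18282059 to 22500534. The 2 tables were scaled and tested separately, so no level is compared across them. Statements that libraries of 2 groups did not overlap describe 2 or 3 libraries per group and are no test. The share of all genes without such overlap is not given here. Of the 6 mucins, 5 had a row in the first table and 4 passed its filter on low counts (Muc5b did not), while the 6 passed it in the clones. Muc16 in gland and uncloned organoids was not analysed here. In the gland the 10 most counted genes took 65.5% to 67.6% of the counts, which bears on its depth for other genes.

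Per kilobase of exon, the membrane mucins stood well above the gel-forming ones in organoids, with Muc4 first in each organoid group. In DM organoids Muc4 had 62.4 ± 9.84 CPM per kb, Muc20 16.8 ± 2.50, Muc1 14.1 ± 2.37, Muc5ac 0.0844 ± 0.116 and Muc5b 0.00176 ± 0.00306 CPM per kb (SD, n = 3). In EM organoids the order was the same, at 41.0 ± 7.48 for Muc4, 6.73 ± 1.54 for Muc20, 5.05 ± 0.83 for Muc1, 0.0834 ± 0.0663 for Muc5ac and 0.0287 ± 0.0115 for Muc5b. The libraries of Muc20 and Muc1 overlapped in both media, as did those of Muc5ac and Muc5b in EM, so these neighbours are not ordered beyond their spread. The gland had 0.407 CPM per kb of Muc20, 0.293 of Muc1 and 0.0785 of Muc4, and no count of Muc5ac or Muc5b. There Muc1 overlapped with both Muc20 and Muc4, while Muc20 lay above Muc4 without overlap. Clones labelled KO in DM had 17.6 CPM per kb of Muc4, 12.6 of Muc20, 10.1 of Muc1 and 0.685 of Muc16, where Muc20 and Muc1 overlapped, and the same clones in EM had 49.1, 10.7, 12.3 and 0.325, where Muc20 and Muc1 overlapped as well. WT clones in DM had 67.3 CPM per kb of Muc4, 63.1 of Muc20 and 53.3 of Muc1, which overlapped, and 1.73 of Muc16. WT clones in EM had 32.6, 21.9, 19.2 and 0.195 CPM per kb of those 4 genes, with no overlap between neighbours. Muc5ac exceeded Muc16 in clones labelled KO in EM, at 0.636 against 0.325 CPM per kb, with no overlap between the libraries, and stood below it in the other clone groups.

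Organoids in either medium carried far more membrane mucin transcript than the gland they were grown from, and the gel-forming mucins, at 0 in the gland, were present at low counts. In the plot of levels in gland and uncloned organoids, the 3 gland libraries lie along the axis for each gene.

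**Figure D1:**
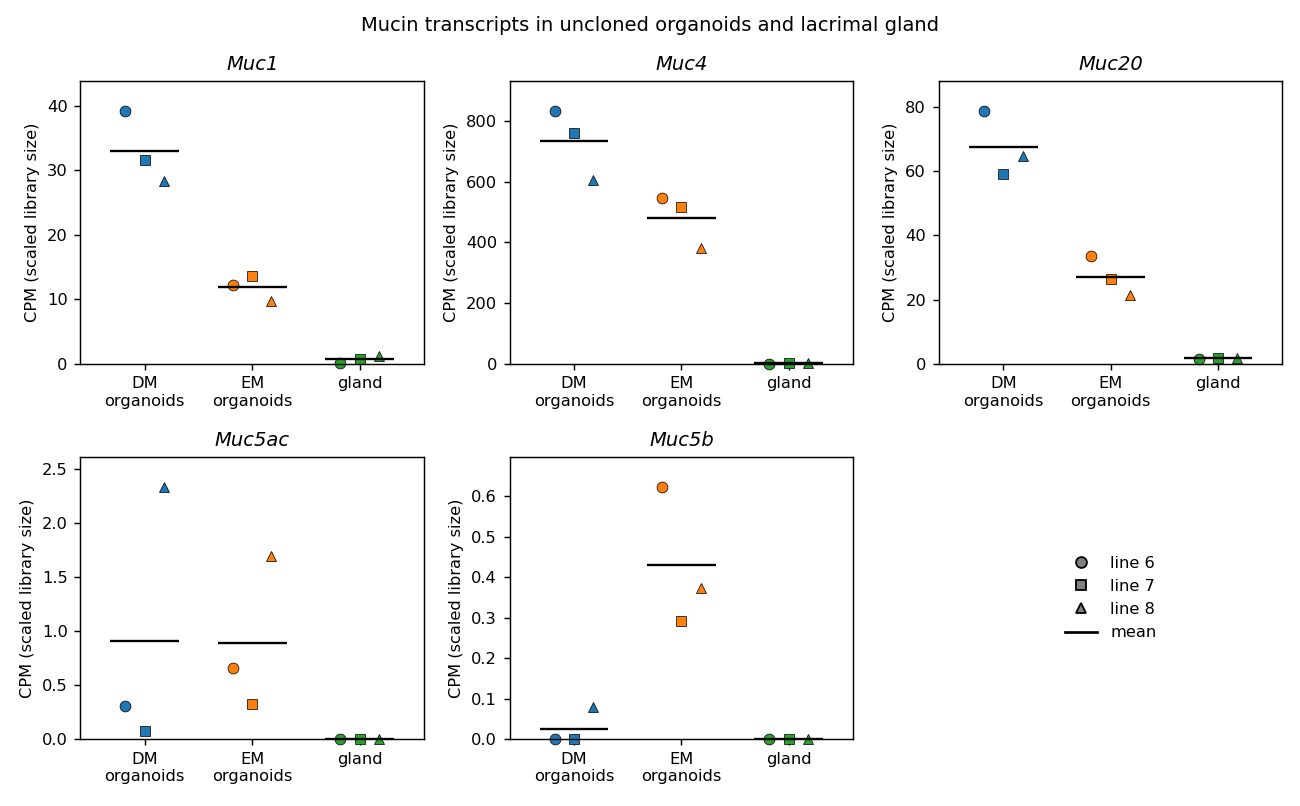
CPM (read counts normalised to the scaled library size) of Muc1, Muc4, Muc20, Muc5ac and Muc5b in DM organoids, EM organoids and lacrimal gland, with 1 point per library (lines 6, 7 and 8) and a bar at the mean of 3. Muc1, Muc4 and Muc20 are highest in DM organoids and near 0 in the gland, and the mean of Muc5ac in DM organoids rests on line 8, at 2.34 CPM.

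Muc4, the highest of the mucins per kilobase in organoids, had 833, 762 and 607 CPM in DM organoids of lines 6, 7 and 8 and 546, 517 and 381 CPM in EM organoids, against 0.355, 1.64 and 0.771 CPM in the gland. It rose by 9.66 ± 0.31 in DM organoids and by 9.05 ± 0.30 in EM organoids over the gland on the log2 scale (± SE; edgeR adjusted p = 3.26e-10 and 5.4e-10). Muc1 had 39.1, 31.5 and 28.3 CPM in DM organoids and 12.2, 13.6 and 9.73 CPM in EM organoids, against 0.178, 0.729 and 1.16 CPM in the gland. Its log2 increase over the gland was 5.47 ± 0.32 in DM organoids (adjusted p = 3.81e-08) and 3.997 ± 0.35 in EM organoids (adjusted p = 9.9e-07). Muc20 had 78.7, 59.1 and 64.8 CPM in DM organoids and 33.6, 26.4 and 21.3 CPM in EM organoids, against 1.42, 1.82 and 1.67 CPM in the gland. That gave 5.36 ± 0.25 in DM organoids (adjusted p = 5.58e-09) and 4.04 ± 0.26 in EM organoids (adjusted p = 8.16e-08). For these 3 genes every organoid library exceeded every gland library. Both contrasts use the same gland libraries.

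Muc5ac had 6, 2 and 59 counts in DM organoids of lines 6, 7 and 8 and 16, 9 and 41 counts in EM organoids, against no count in the 3 gland libraries. Against a floor of 3 counts over the gland group (0.159 CPM), Muc5ac was at least 5.96-fold higher in DM organoids and at least 5.50-fold higher in EM organoids. Line 8 gave 59 of the 67 counts in DM and 41 of the 66 counts in EM, and without its organoid library the bound was 1.11-fold in DM and 3.06-fold in EM, an alternative chosen after seeing the data. Muc5ac was not called (edgeR adjusted p = 0.0834 and 0.0882), and it was called with the line as a block (adjusted p = 0.00735 in DM and 0.00488 in EM). In DM it was also called without line 7 of the DM organoids (adjusted p = 0.0209). Muc5b had 0, 0 and 2 counts in DM organoids, where no fold is given, and 15, 8 and 9 counts in EM organoids, at least 2.67-fold higher, against no count in the gland. In all, 3 of 4 mucins tested rose in each contrast and 0 fell. Of the 13713 genes tested, 38.1% rose in DM organoids and 37.4% in EM organoids, and 75.5% and 74.8% changed in either direction, so most genes differed from the gland. With the block 37.9% rose in DM organoids and 37.3% in EM organoids, against 4 of 4 mucins tested. Gland and organoid libraries of the same number hardly shared deviations from group means (r from -0.07 to 0.08).

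Markers of cell types also differed between organoids and gland. The summed CPM of 4 acinar markers was 21.8 to 26.3 in DM organoids and 3.29 to 4.10 in EM organoids, against 10281 to 11388 in the gland. Duct markers (4 keratins, among them Krt7 and Krt19) summed to 5389 to 6672 CPM in DM organoids and 3986 to 4423 in EM organoids, against 937 to 954 in the gland. Basal markers (among them Krt5 and Krt14) summed to 4154 to 5369 CPM in DM organoids and 2626 to 2906 in EM organoids, against 55.4 to 76.4 in the gland. The conjunctival keratins summed to 4.42 to 13.2 CPM in DM organoids and 16.8 to 22.04 in EM organoids, against 0 to 0.355 in the gland. The corneal markers summed to 38.8 to 49.8 and 50.8 to 75.9 CPM in DM and EM organoids, against 3.55 to 6.69 in the gland. The 4 fibroblast markers summed to at most 0.538 CPM in organoids, against 516 to 613 in the gland, where Col1a1, Col3a1, Dcn and Pdgfra were each above 0. In bulk RNA, fewer cells of a type and less RNA per cell cannot be told apart, and the part of these markers in the mucin differences was not tested. With libraries scaled to their totals, the median log2 change of all genes moved by 1.97 in DM organoids and 2.06 in EM organoids, and the 3 mucins stayed higher in organoids.

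Genes of the mucin machinery differed from the gland in both directions. Of 21 enzymes of mucin-type O-glycosylation tested, 14 rose and 5 fell in DM organoids, and 11 rose and 7 fell in EM organoids. Over all genes tested, 38.1% rose and 75.5% changed in DM organoids, and 37.4% rose and 74.8% changed in EM organoids. The median log2 change of these enzymes was 1.66 in DM and 1.20 in EM organoids, against 0.02 and 0.01 for all genes. B3gnt3, which extends core 1 glycans, had 88.5 CPM in DM and 110 CPM in EM organoids, against 0.818 CPM in the gland (log2 6.70 ± 0.24 and 7.02 ± 0.23). C1galt1, the core 1 synthase, had 21.1 and 14.0 CPM in DM and EM organoids, against 0.367 CPM in the gland. Galnt10, an enzyme that starts O-glycans, fell by 2.26 in DM and by 2.84 in EM organoids on the log2 scale. Of 6 genes of mucous secretory cells tested, 4 fell and 1 rose in each medium. Agr2, a folding factor that intestinal goblet cells need for mucin in mice, had 3.37 CPM in DM and 0.973 CPM in EM organoids, against 1334 CPM in the gland. The goblet cell regulator Spdef had 1.61 and 0.839 CPM in DM and EM organoids, against 36.3 CPM in the gland, and Fcgbp, a protein of mucus gels, had 2.94 and 3.46 CPM, against 176 CPM. The other goblet markers, Foxa3, Tff1 and Tff2, had no count in the gland.

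Of 8 other mucins and sialomucins tested, 3 rose and 4 fell in DM organoids and 2 rose and 5 fell in EM organoids. Mucl2, a mucin-like secreted protein, had 0 to 31 counts in each organoid library and took 16% to 17.8% of all counts in the gland. Muc13, a membrane mucin of gut epithelium, had 24.5 CPM in DM and 25.1 CPM in EM organoids, against 0.102 CPM (2 counts) in the gland. Of 12 partners of membrane mucins tested, 9 rose and 2 fell in DM organoids and 10 rose and 2 fell in EM organoids. In DM and EM organoids 38.1% and 37.4% of all genes tested rose, and 75.5% and 74.8% changed. Mesothelin (Msln), which binds MUC16 in human cells, had 230.1 CPM in DM and 330.4 CPM in EM organoids, against 1.93 CPM in the gland. Adam17, a protease that sheds membrane proteins, had 103 CPM in DM and 99.7 CPM in EM organoids, against 18.3 CPM in the gland.

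Within uncloned organoids, the membrane mucins Muc1, Muc4 and Muc20 rose in DM to 1.52- to 2.78-fold their EM level, while Muc5ac was not called and Muc5b had fewer counts in DM. Muc1 rose by 1.47 ± 0.19 in DM on the log2 scale (edgeR adjusted p = 2.36e-04), Muc20 by 1.32 ± 0.16 (adjusted p = 1.45e-04) and Muc4 by 0.61 ± 0.17 (adjusted p = 0.0207). The DM libraries lay above the EM libraries without overlap for each of the 3. Within lines 6, 7 and 8 the log2 difference of DM minus EM was 1.67, 1.21 and 1.53 for Muc1, 1.23, 1.16 and 1.60 for Muc20 and 0.61, 0.56 and 0.67 for Muc4. The call of Muc4 was lost without line 6 in DM (adjusted p = 0.072) or without line 8 in EM (adjusted p = 0.0885). These were 3 of 4 mucins tested, against 17.2% of all genes tested that rose and 30.3% that changed.

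Muc5ac averaged 0.907 ± 1.24 CPM in DM and 0.897 ± 0.713 CPM in EM organoids (SD, n = 3), with a log2 difference of 0.06 ± 0.94 (edgeR adjusted p = 0.983). Its DM value rested on line 8, and without that library the log2 difference was -2.27 (adjusted p = 0.0562). Line 8 was also the highest in EM, at 1.70 CPM. Muc5b had 2 counts over the 3 DM libraries against 32 over the 3 EM libraries, a ratio of 15.0-fold lower in DM with an exact 95% interval of 4.15 to 124 that covers counting error only. It was not tested in this table because it did not pass the filter.

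Mucin-processing enzymes moved partly with the membrane mucins. In DM organoids 9 of 21 O-glycosylation enzymes rose and 1 fell against EM, with a median log2 change of 0.33 against 0.00 for all genes. Over all genes tested, 17.2% rose and 30.3% changed. The sialyltransferase St3gal4 had 38.3 CPM in DM against 6.38 CPM in EM (2.58 ± 0.17, edgeR adjusted p = 4.76e-06). Galnt6, Galnt3 and Galnt14, which start O-glycans, rose by 1.45, 0.74 and 4.54 on the log2 scale, the last of these at 1.99 CPM in DM against 0.0812 CPM in EM. St6galnac2, a sialyltransferase, was the enzyme that fell, at 141 CPM in DM against 205 CPM in EM. Of 8 other mucins, Muc15 (4.48 ± 0.37) and Podxl (2.47 ± 0.62) rose, both at low levels of 1.92 and 1.90 CPM in DM against 0.0796 and 0.339 CPM in EM. Of 6 mucous secretory genes, Agr2 (1.78) and Spdef (0.94) rose on the log2 scale and 0 fell. The summed goblet markers were 3.84 to 7.17 CPM in DM and 1.24 to 2.45 CPM in EM.

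Of 12 partners of membrane mucins, 4 rose and 0 fell in DM, and 5 rose and 1 fell with the line as a block. Without the block 17.2% of all genes tested rose and 30.3% changed. The share with the block is not given here, so the block count has no background. Moesin (Msn) and ezrin (Ezr), which tie the membrane to actin, rose by 2.00 and 0.56 on the log2 scale. Galectin-3 (Lgals3), which crosslinks membrane mucins at the human ocular surface, had 301 CPM in DM against 118 CPM in EM. The membrane protease Mmp14 had 323 CPM in DM against 171 CPM in EM. The receptors Egfr, Met, Erbb2 and Erbb3 were not called, and with the block Egfr rose by 0.30 (adjusted p = 0.0356) and Msln fell by 0.56 (adjusted p = 0.0119). Myoepithelial markers summed to 132 to 222 CPM in DM, against 5.75 to 6.85 CPM in EM. Of these, Mylk, Acta2 and Cnn1 rose by 6.41, 4.36 and 3.41 on the log2 scale, and Myh11 was not called (0.09). Acinar markers summed to 21.8 to 26.3 CPM in DM against 3.29 to 4.10 CPM in EM, duct keratins to 5389 to 6672 against 3986 to 4423 CPM, and basal markers to 4154 to 5369 against 2626 to 2906 CPM. Aqp5 gave 19.99, 24.18 and 22.22 CPM of the acinar sums in DM organoids of lines 6, 7 and 8. The acinar gene Lpo also rose (edgeR adjusted p = 0.00791). The acinar genes Bhlha15 (-0.517 ± 0.247, log2) and Car6 (-0.205 ± 0.678) were lower in DM and not called. Aqp5 rose by 3.53 and the corneal Krt12 by 3.79 on the log2 scale, while the corneal Aldh3a1 fell by 0.99 and the conjunctival Krt4 by 1.46 (adjusted p = 4.88e-07, 8.14e-05, 9.09e-04 and 0.0418). Corneal and conjunctival sums were lower in DM, at 38.8 to 49.8 and 4.42 to 13.2 CPM, against 50.8 to 75.9 and 16.8 to 22.04 CPM in EM. The part of these markers in the mucin values was not tested.

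The clones set the medium beside the genotype, and Pax6 transcript was read first. Pax6 had 135 and 309 CPM in clones labelled KO in DM, against 219 and 279.7 CPM in WT clones in DM. In EM it had 172 and 272 CPM in clones labelled KO, against 245 and 276 CPM in WT clones. The difference was not called in DM or in EM (edgeR adjusted p = 0.831 and 0.744), so Pax6 counts cannot check the genotype, and the clones are called labelled KO here.

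**Figure D2:**
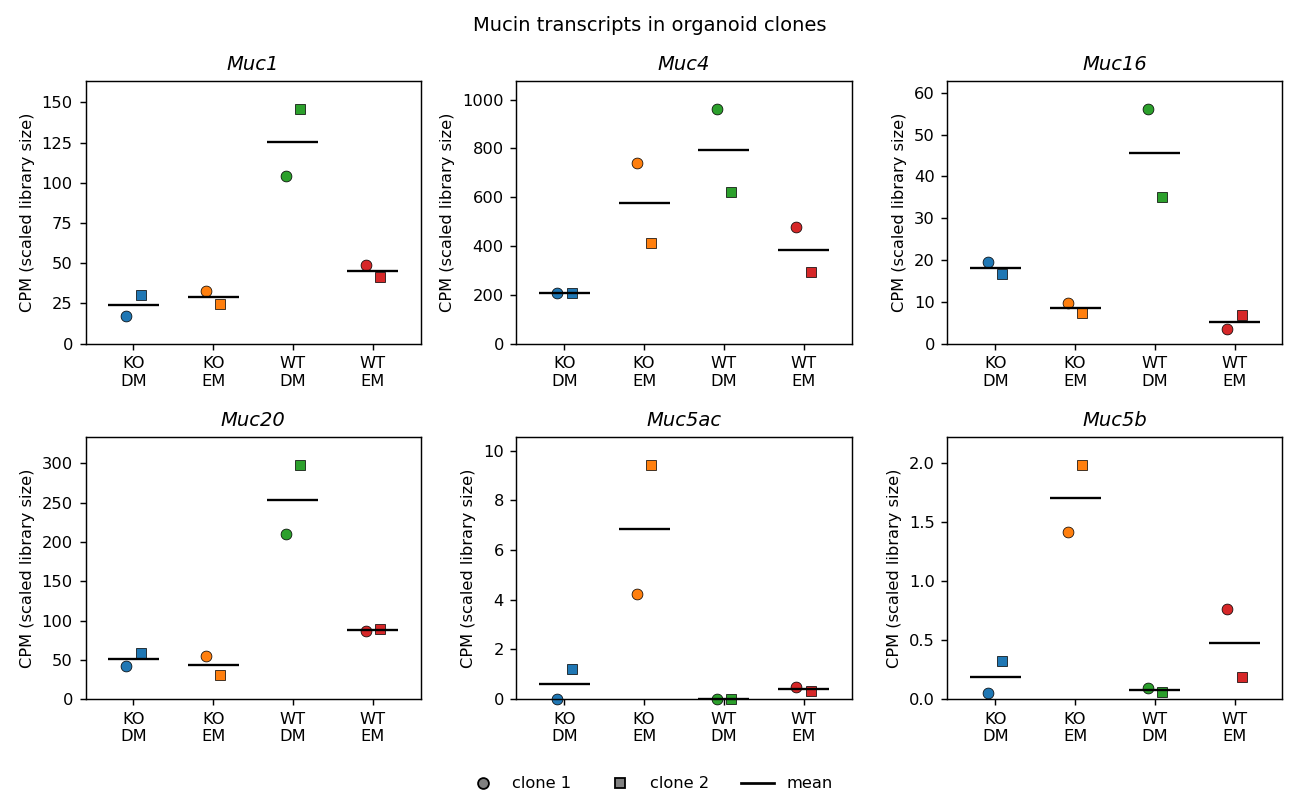
CPM (read counts normalised to the scaled library size) of the 6 mucins in clones labelled KO and WT clones, each in DM and EM, with 1 point per clone and a bar at the mean of 2. Muc1, Muc4, Muc16 and Muc20 are highest in WT clones in DM, except that Muc4 in clone 1 labelled KO in EM (741 CPM) exceeds WT clone 2 in DM (622 CPM), and Muc5ac and Muc5b are highest in clones labelled KO in EM.

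In DM the 4 membrane mucins were 2.53- to 5.26-fold lower in clones labelled KO than in WT clones by fitted values, and 3 of them passed the test. Muc1 had 17.1 and 30.4 CPM in clones labelled KO, against 104 and 146 CPM in WT clones. Muc20 had 42.5 and 58.6 CPM in clones labelled KO, against 209.7 and 298 CPM in WT clones. Muc4 had 206 and 208 CPM in clones labelled KO, against 960.4 and 622 CPM in WT clones. Each of the 3 fell, by 2.40 ± 0.31 for Muc1 (edgeR adjusted p = 0.0178), 2.33 ± 0.30 for Muc20 (adjusted p = 0.018) and 1.94 ± 0.36 for Muc4 (adjusted p = 0.0337) on the log2 scale. Muc16 had 19.5 and 16.6 CPM in clones labelled KO, against 56.1 and 35.1 CPM in WT clones, and was not called (-1.34 ± 0.36, adjusted p = 0.0771). For these 4 genes each clone labelled KO lay below each WT clone, which describes 2 against 2 clones and is no test. Of the 14282 genes tested, 3.08% fell and 5.47% changed, against 3 of 6 mucins.

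Without clone 1 labelled KO in DM, Muc1, Muc4 and Muc20 had adjusted p of 0.093, 0.178 and 0.121. Without clone 2 labelled KO in DM, the adjusted p was 0.141 for Muc4 and 0.0568 for Muc20, while Muc1 was called, and without WT clone 1 in DM it was 0.0952 for Muc4. Leaving out 1 library leaves a group of 1, whose spread is then taken from the other groups.

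The gel-forming mucins were near 0 in DM in both genotypes. Muc5ac had 0 and 23 counts in clones 1 and 2 labelled KO, against 0 and 0 in WT clones, at least 7.89-fold higher against a floor of 3 counts over the WT group, with the counts coming from 1 clone (edgeR adjusted p = 0.19). Muc5b had 7 counts over both clones labelled KO, against 3 over both WT clones, a ratio of 2.40 with an exact 95% counting interval of 0.822 to 11.6 (adjusted p = 0.572).

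In EM no mucin was called between genotypes by edgeR, against 9.8% of all genes. An unadjusted p under 0.05 was found for 2 of 6 mucins, against 3915 of the 14282 genes tested. DESeq2 called 1 of 6 mucins, and its share over all genes is not given here. Muc20 had 54.9 and 31.3 CPM in clones labelled KO, against 86.3 and 89.8 CPM in WT clones (-1.03 ± 0.30, edgeR adjusted p = 0.074). Muc1 had 32.8 and 24.8 CPM in clones labelled KO, against 48.8 and 41.2 CPM in WT clones (-0.64 ± 0.30, adjusted p = 0.214). Muc4 overlapped, at 741 and 414 CPM in clones labelled KO, against 476 and 291 CPM in WT clones (0.59 ± 0.35, adjusted p = 0.326). Muc16 had 9.75 and 7.41 CPM in clones labelled KO, against 3.39 and 6.89 CPM in WT clones (0.74 ± 0.37, adjusted p = 0.251).

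Among the 4 clone groups, both gel-forming mucins were highest in clones labelled KO in EM, without passing the test against WT. Muc5ac had 4.24 and 9.44 CPM (84 and 181 counts) in clones labelled KO, against 0.491 and 0.328 CPM (11 and 7 counts) in WT clones. The log2 difference was 4.04 ± 1.31 (edgeR adjusted p = 0.115), and every clone labelled KO lay above every WT clone. Muc5b had 1.41 and 1.98 CPM in clones labelled KO, against 0.758 and 0.188 CPM in WT clones (1.82 ± 0.80, adjusted p = 0.197), again without overlap. The goblet marker Spdef had 3.56 CPM in clones labelled KO against 1.295 CPM in WT clones (adjusted p = 0.174), and Agr2 had 2.11 against 1.91 CPM. The 5 goblet markers summed to 4.44 to 7.82 CPM in clones labelled KO and 2.39 to 4.15 CPM in WT clones in EM, with 2 markers at 0 in each, and their part in the difference was not tested.

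Conjunctival, acinar and other markers differed between the genotypes beside the membrane mucins. The conjunctival keratins Krt4 and Krt13 summed to 1.59 to 22.9 CPM in clones labelled KO in DM, against 97.2 to 110 CPM in WT clones in DM. In EM the sums were 28.0 to 38.9 CPM in clones labelled KO and 117 to 174 CPM in WT clones. Krt4 fell by 4.78 in DM (edgeR adjusted p = 0.0254) and by 4.50 in EM (adjusted p = 0.0131) on the log2 scale. Of the 2 corneal markers, the keratin Krt12 fell by 5.51 in DM (adjusted p = 0.0376) and Aldh3a1, a major soluble protein of the mouse cornea, was not called (0.11 ± 0.46, adjusted p = 0.912). Their sums overlapped, at 33.6 to 69.8 CPM in clones labelled KO and 36.3 to 67.2 CPM in WT clones in DM. The 4 acinar markers summed to 2.46 to 5.63 CPM in clones labelled KO in DM, against 21.96 to 31.6 CPM in WT clones in DM. Among them the water channel Aqp5 fell by 7.07 (adjusted p = 0.00734), and in EM the acinar sums overlapped. Aqp5 gave 20.9 and 29.6 CPM of the sums in WT clones in DM. The acinar gene Lpo went the other way, at 1.80 and 5.21 CPM in clones labelled KO in DM, against 0.0458 and 1.14 CPM in WT clones. The lysosomal gene Cd68 fell by 2.15 in DM (adjusted p = 0.0302), while the other macrophage markers had at most 1.10 CPM (Csf1r) and no count (Adgre1) in the clones. In EM the basal keratin Krt14 rose by 1.25 in clones labelled KO (adjusted p = 0.0388), and the other 3 of 4 basal markers were not called. Of these the basal keratin Krt15 went the other way in EM. It had 190 and 579 CPM in clones labelled KO, against 1056 and 1582 CPM in WT clones. Msln had 74.3 CPM in clones labelled KO in DM, against 617 CPM in WT clones in DM, and was not called (-3.05 ± 0.70, adjusted p = 0.0533). Duct keratins summed to 4881 to 5306 CPM in clones labelled KO and 5329 to 7204 CPM in WT clones in DM, and basal markers to 5254 to 8154 and 6625 to 6710 CPM. The part of these markers in the mucin differences was not tested.

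Genes that process or accompany mucins included some that differed between genotypes. In DM 3 of 21 O-glycosylation enzymes fell and 0 rose in clones labelled KO, with a median log2 change of -0.52 against -0.01 for all genes, of which 3.08% fell and 5.47% changed. Those were St6galnac1, a sialyltransferase that caps mucin glycans (3.19 against 28.2 CPM), Galnt12 (1.05 against 8.49 CPM) and Galnt3 (121 against 219 CPM). In EM Galnt12 fell as well (1.42 in clones labelled KO against 9.07 CPM in WT clones), while C1galt1 (157 against 84.4 CPM) and St3gal1 (103 against 42.5 CPM) rose, so 3 of 21 changed against 9.8% of all genes. Fcgbp fell in both media, to 0.238 CPM in DM and 0.337 CPM in EM in clones labelled KO, against 3.74 and 12.02 CPM in WT clones. Of 6 other mucins, Cd164, a sialomucin, fell in DM (493 CPM in clones labelled KO against 779 CPM in WT clones, adjusted p = 0.0395) and edgeR called 0 in EM, with 3 at an unadjusted p under 0.05. Of 12 partners edgeR called 0 in either medium, with 4 at an unadjusted p under 0.05 in each. Of the 14282 genes tested, 3915 in EM and 3486 in DM had an unadjusted p under 0.05.

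Within WT clones the membrane mucins were again higher in DM than in EM. In WT clones Muc16 had 56.1 and 35.1 CPM in DM, against 3.39 and 6.89 CPM in EM, a log2 rise of 3.15 ± 0.39 (edgeR adjusted p = 0.00438). Muc20 rose by 1.53 ± 0.30 (adjusted p = 0.0171) and Muc1 by 1.47 ± 0.30 (adjusted p = 0.0192). Muc4 had 960.4 and 622 CPM in DM, against 476 and 291 CPM in EM (1.04 ± 0.35, adjusted p = 0.0908), and was called with the clone as a block (adjusted p = 0.00972). So 3 of 6 mucins rose, and 4 of 6 with the block, against 9.61% and 14.9% of all genes tested, of which 15.7% and 25.6% changed. The call of Muc1 was lost without WT clone 2 in DM (adjusted p = 0.0594), WT clone 1 in EM (0.0777) or WT clone 2 in EM (0.0965), and that of Muc20 without the same libraries (0.0505, 0.0939 and 0.0748). Muc5ac had no count in DM against 11 and 7 in EM, at least 5.41-fold lower (adjusted p = 0.189). Muc5b had 2 and 1 counts in DM against 17 and 4 in EM, 6.31-fold lower with an exact counting interval of 2.16 to 30.6 (adjusted p = 0.149).

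**Figure D3:**
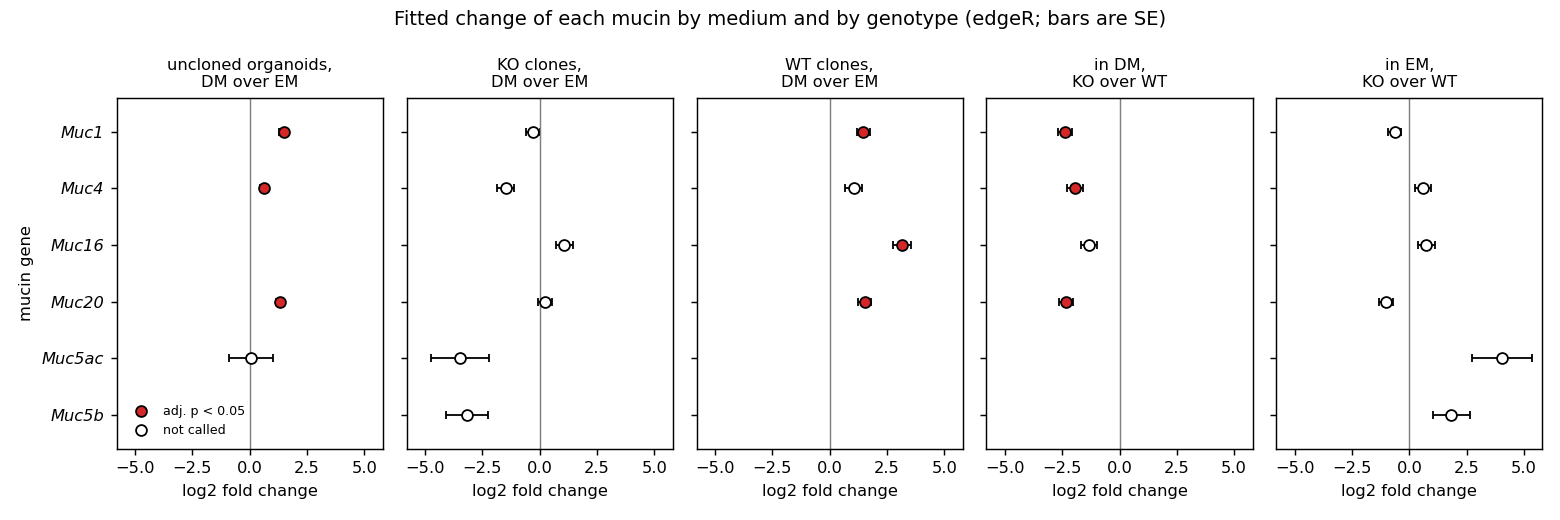
Fitted log2 fold change of each mucin (horizontal axis, edgeR, bars are SE) between media in uncloned organoids, clones labelled KO and WT clones, and between clones labelled KO and WT clones in each medium. Filled points had an adjusted p under 0.05, and genes with 3 or fewer counts in a group, or not tested, are not drawn. Muc1 and Muc20 are higher in DM in uncloned organoids and WT clones, and lower in clones labelled KO than in WT clones in DM.

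In clones labelled KO the medium went with another pattern. Muc4 had 206 and 208 CPM in DM, against 741 and 414 CPM in EM, lower in both clones (-1.48 ± 0.36, edgeR adjusted p = 0.0504), and it fell with the clone as a block (-1.42 ± 0.20, adjusted p = 0.00517). Muc5ac had 0 and 1.22 CPM in DM, against 4.24 and 9.44 CPM in EM (adjusted p = 0.161), and fell with the block (-3.81 ± 0.76, adjusted p = 0.0235). It was also called without clone 2 in DM (adjusted p = 0.0484), where the remaining DM library had no count. Muc5b had 0.0513 and 0.319 CPM in DM, against 1.41 and 1.98 CPM in EM (-3.16 ± 0.90, adjusted p = 0.0774), and fell with the block (-3.24 ± 0.64, adjusted p = 0.0165). Muc16 had 19.5 and 16.6 CPM in DM, against 9.75 and 7.41 CPM in EM (1.07 ± 0.36, adjusted p = 0.124). Muc1 (-0.28 ± 0.30, adjusted p = 0.636) and Muc20 (0.23 ± 0.29, adjusted p = 0.701) had overlapping DM and EM libraries. No mucin was called without the block, against 8.35% of all genes. An unadjusted p under 0.05 was found for 4 of 6 mucins, against 3510 of the 14282 genes tested. DESeq2 called 2 mucins, and its calls over all genes are given in the closing section. With the block 3 of 6 mucins fell, against 16.4% of all genes changed and 7.12% lower.

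Clone by clone, the log2 difference of DM minus EM in Muc4 was -1.85 and -0.99 in clones 1 and 2 labelled KO, against 1.01 and 1.09 in WT clones. For Muc1 it was -0.94 and 0.29 in clones labelled KO, against 1.10 and 1.82 in WT clones, and for Muc20 it was -0.37 and 0.90, against 1.28 and 1.73. Muc16 was higher in DM in all 4 clones, by 0.99 and 1.16 in clones labelled KO and by 4.01 and 2.33 in WT clones. Muc5b was lower in DM in all 4 clones and in the 3 uncloned lines. The fitted difference between the medium effects, labelled KO minus WT, was -2.53 ± 0.50 for Muc4 (edgeR adjusted p = 0.307), -2.08 ± 0.51 for Muc16 (0.368), -1.75 ± 0.42 for Muc1 (0.354) and -1.299 ± 0.41 for Muc20 (0.516). In this test edgeR called 0 of 14282 genes (0%), with 1126 genes and 4 of 6 mucins at an unadjusted p under 0.05, and DESeq2 called 178 genes and 3 mucins. With the clone as a block Muc4 was called (-2.48 ± 0.28, adjusted p = 0.0255), among 0.49% of the genes tested.

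**Figure D4:**
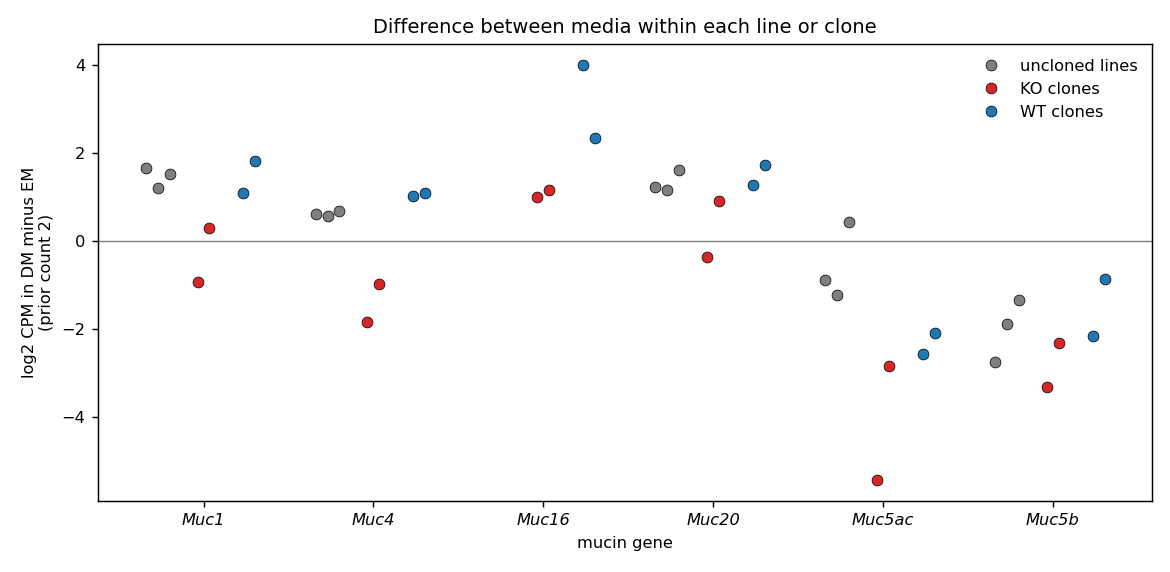
Difference in log2 CPM (prior count 2) between DM and EM within each uncloned line, each clone labelled KO and each WT clone, for the 6 mucins. In Muc4 the points of both clones labelled KO lie below 0 and the other points above it, and points of Muc5ac and Muc5b rest on few counts and depend on the prior count.

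Cell-type markers moved with the medium in the clones too. In WT clones Aqp5 rose by 2.64, Krt12 by 4.36, the myoepithelial gene Mylk by 4.27, Krt18 by 1.37 and Krt14 by 1.123 on the log2 scale, and Aldh3a1 fell by 2.06 (edgeR adjusted p from 0.00579 to 0.0395). In clones labelled KO Mylk rose by 7.76 and Acta2 by 5.28, and Aqp5 fell by 2.78 (adjusted p = 0.0108, 0.0362 and 0.0351). The acinar sums in WT clones were 21.96 to 31.6 CPM in DM, against 5.06 to 7.18 CPM in EM. Aqp5 gave 20.9 and 29.6 CPM of them in DM and 4.46 and 3.61 CPM in EM. Bhlha15 was lower in DM and not called (-1.27 ± 0.53, edgeR adjusted p = 0.154). The myoepithelial sums were 30.9 to 35.9 CPM in DM against 0.960 to 1.46 CPM in EM in clones labelled KO, and 11.1 to 28.7 CPM against 1.115 to 3.33 CPM in WT clones. Not all 4 markers followed. Myh11 was not called in clones labelled KO (-1.90 ± 1.53, log2) or in WT clones (0.03 ± 1.24). Cnn1 had 1 count in DM against 4 in EM in clones labelled KO, and 7 against 0 in WT clones. The corneal sums were 33.6 to 69.8 CPM in DM against 136 to 208 CPM in EM in clones labelled KO, and 36.3 to 67.2 CPM against 168 to 232 CPM in WT clones. The part of these markers in the medium differences of the mucins was not tested.

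Some genes around the mucins changed with the medium. Of 12 partners, Msn, Ezr, Lgals3 and Mmp14 rose with DM in WT clones, and Msn (1.56), Ezr (0.85) and Lgals3 (1.37) rose on the log2 scale in clones labelled KO. Of 21 O-glycosylation enzymes, 4 rose and 0 fell in WT clones, namely St3gal1, C1galt1, Galnt3 and St3gal4, and with the clone as a block 7 rose and 1 fell. Over all genes tested in WT clones, 9.61% rose, and 14.9% with the block. In clones labelled KO, Galnt18 fell (124 CPM in DM against 257 CPM in EM) and 0 rose, and with the block 2 rose and 2 fell. Over all genes tested there, 8.35% changed, and 16.4% with the block. Muc13 fell in clones labelled KO, at 26.3 CPM in DM against 139.8 CPM in EM (-2.41 ± 0.46, edgeR adjusted p = 0.0276), and had 52.8 CPM in DM and 52.2 CPM in EM in WT clones. Agr2 fell with DM in WT clones (0.536 against 1.91 CPM, adjusted p = 0.0361), which is the direction opposite to uncloned organoids. In clones labelled KO it had 0.600 CPM in DM and 2.11 CPM in EM (adjusted p = 0.0535), and it fell with the clone as a block (-1.80 ± 0.45, adjusted p = 0.0361), as did Spdef (-2.01 ± 0.51, adjusted p = 0.0387). The difference of the medium effect on Agr2 between genotypes was 0.02 ± 0.59 (adjusted p = 1). With the block, Fcgbp also fell in WT clones (-1.68 ± 0.26, adjusted p = 0.0045), and Muc15 rose (3.01 ± 0.62, adjusted p = 0.0191) and Msln fell (-0.81 ± 0.17, adjusted p = 0.0214) in clones labelled KO.

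**Figure D5:**
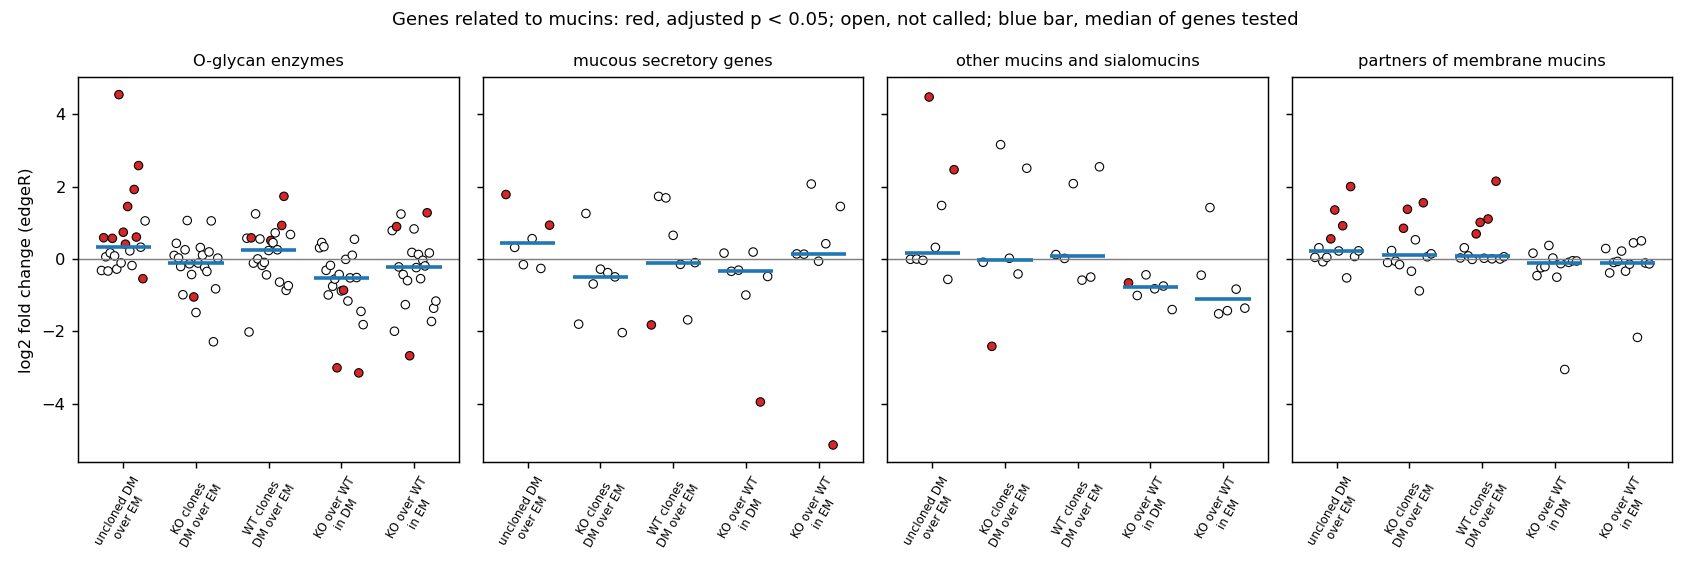
Fitted log2 fold change (edgeR) of each tested gene of 4 lists, O-glycan enzymes, mucous secretory genes, other mucins and sialomucins, and partners of membrane mucins, in 5 comparisons. Red points had an adjusted p under 0.05, open points did not, and blue bars are medians. Partners of membrane mucins include called genes above 0 in the 3 comparisons of DM over EM.

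Over the libraries of each table, Muc1 and Muc20 kept the closest likeness among the mucins. Pearson's r of their log2 CPM was 0.981 over the 9 libraries of gland and uncloned organoids and 0.966 over the 8 clone libraries. Muc5ac and Muc5b had r = 0.945 over the 8 clone libraries, while Muc1 and Muc4 had 0.967 in the first table and 0.689 in the clones. These values describe shared groups of libraries, since groups set most of the spread. Among 11759 genes tested in both tables, ranked by the lower of both r, the nearest to Muc1 were Capg (0.970 and 0.980), an actin-capping protein, Parm1 (0.963 and 0.947), a mucin-like membrane protein, and Crtap (0.941 and 0.965), a collagen-modifying factor. Nearest to Muc20 were Capg (0.984 and 0.977), Sowahb (0.984 and 0.962) and Krtcap3 (0.973 and 0.961). Muc4 was nearest to Atp2b1 (0.987 and 0.928), a calcium pump of the plasma membrane, Nbeal2 (0.981 and 0.926) and Rcn2 (0.966 and 0.918). Muc5ac was nearest to Bcl2l14 (0.889 and 0.934), Ptma (0.877 and 0.896) and Loxl4 (0.875 and 0.917). Capg averaged 484 CPM in DM organoids and 349 CPM in EM organoids, against 22.2 CPM in the gland. Muc16 and Muc5b were not tested in both tables and were not ranked this way.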

How the data were processed

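Polyadenylated RNA of 17 libraries was measured, and the 2 tables deposited by the authors hold raw read counts per Ensembl gene. Reads were aligned with STAR and counted with featureCounts on GRCm38, per the submitters' processing notes, from a stranded kit per the labels' protocols. No source used here gives tool versions, the annotation or the strand setting of the counting. Symbols, positions and exon lengths came from GENCODE M21, and promoters from RefSeq.

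The members and gene lists were chosen with earlier results of these data known. Each table was analysed separately with edgeR 4.0.16 in R 4.3.3 (TMM scaling, filterByExpr, 1 mean per group, glmQLFit and glmQLFTest, Benjamini-Hochberg over the genes tested, called under 0.05), which was tested on simulated data. This tested 13713 of 38293 genes in the table of gland and uncloned organoids, and 14282 of 55487 in the clone table. CPM uses the TMM-scaled library size, and log2 CPM a prior count of 2. Floors are 3 counts over a group, and intervals (95%) cover counting error only. Libraries of a group differed beyond sampling noise.

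The line or clone as a block was an alternative fit. The labels give EM and DM libraries, and the gland, the same line or clone number. Deviations from group means correlated between EM and DM at 0.18, 0.12 and 0.09 for lines 6, 7 and 8, 0.51 for clones labelled KO and 0.60 for WT clones. For numbers 6, 7 and 8 they correlated between gland and DM organoids at -0.07, 0.04 and 0.08, and between gland and EM organoids at -0.03, 0.06 and 0.04. Unlike numbers of gland and DM organoids gave -0.13 to 0.13. The other alternatives were total-count scaling, DESeq2 1.42.0 and its size factors, no filter, only the libraries of both groups, and each replicate left out. Named genes were the 6 mucins, Pax6, the 3 genes most like each mucin tested in both tables, and of each list up to 4 genes with the smallest p and those at 100 CPM or more in a group. Markers were fixed lists of cell types.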

Additional observations from a re-analysis of the deposited data

Results flagged for a closer look

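The medium effect on Muc4 differed in direction between the 2 clones labelled KO and the 2 WT clones, and edgeR did not call the difference without the block. DM minus EM was negative in both clones labelled KO (-1.85 and -0.99, log2) and positive in both WT clones (1.01 and 1.09). The difference of the effects, labelled KO minus WT, was -2.53 ± 0.50 (edgeR adjusted p = 0.307). It was -2.48 ± 0.28 with the clone as a block (adjusted p = 0.0255) and -2.52 by DESeq2 (adjusted p = 5.98e-06), and every fit that left out 1 library gave a negative value, from -2.93 to -2.05.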

How the results depend on the processing

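Among the alternative values of single mucins, 383 kept direction and side of the threshold, 46 passed it only under the alternative, 15 no longer passed and 12 changed sign. Without a filter on low counts, 5 mucins were called in EM organoids against the gland (3 in the report), 6 between media in WT clones (3), 4 between media in clones labelled KO (0), 5 between genotypes in EM (0), 5 in DM (3) and 4 in the difference of medium effects (0). DESeq2 called 5 in EM organoids against the gland, 2 between media in clones labelled KO, 1 between genotypes in EM and 3 in the difference of medium effects. With only the libraries of both groups, 3 were called between media in clones labelled KO and 1 between genotypes in EM, and Muc1 was not called between genotypes in DM (adjusted p = 0.0549). Total-count scaling called 1 between media in clones labelled KO. The line or clone as a replicate block called 3 there and 1 in the difference of medium effects. Across genotypes clones share only a number (r from -0.003 to 0.023 in their deviations), and that block left 3 mucins called in DM and 0 in EM, and among the partners it called Met (-0.50, adjusted p = 0.044) and Msln (-3.20, adjusted p = 0.0454) lower in DM. For the mucins, the block changed no other call than those given in the report.

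Leaving out each replicate gave 3 to 3 mucins called in EM and 3 to 4 in DM organoids against the gland, 2 to 3 between media in uncloned organoids, 1 to 3 in WT clones and 0 to 1 in clones labelled KO, 0 to 0 between genotypes in EM, 0 to 3 in DM and 0 to 0 in the difference of medium effects.

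Over all genes, calls between media in WT clones were 2247, against 3497 without a filter, 924 with only both groups, 3650 with the block and 789 to 1956 leaving out a replicate. In clones labelled KO they were 1193, against 2572, 1875 by DESeq2, 2338 with the block and 82 to 284. Between genotypes they were 1399 in EM, against 2947 without a filter and 175 to 494, and 781 in DM, against 2547 without a filter, 1572 by DESeq2, 110 with only both groups and 0 to 524. The difference of medium effects gave 0, against 657 without a filter, 178 by DESeq2, 70 with the block and 0 to 14.

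Sign changes were among values not called. Muc5ac between media in uncloned organoids (0.06) was -0.023 with total-count scaling, -0.36 with the replicate block, -2.27, -0.12 and -0.35 without DM line 8, EM line 6 and EM line 7, and up to 0.90 without another library. Between media in clones labelled KO, Muc1 was 0.078 without clone 1 in DM (range from -0.75), and Muc20 was -0.021 and -0.12 without clone 2 in DM and in EM (range to 0.69). Muc5b between genotypes in DM was -0.51 without clone 2 labelled KO (range to 1.99). In the difference of medium effects, Muc5ac was -4.04 without clone 2 labelled KO in DM (range to 3.59), and Muc5b was 0.16 without clone 1 labelled KO in DM and 0.058 without WT clone 2 in EM (range from -2.33). The cause was not tested. Depth limits Muc5ac and Muc5b, with 0 to 181 counts in a library.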
